A study of Mus musculus with 8 samples.

Results

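The tubulin genes of the mouse heart were examined together with tubulin tyrosine ligase in hearts that had lost Mettl3 from their muscle cells. The 10 members were taken by gene symbol from the 23045 genes of the expression table. They comprise 4 α-tubulin genes (Tuba1a, Tuba1b, Tuba4a and Tuba8), 5 β-tubulin genes (Tubb2a, Tubb2b, Tubb4b, Tubb5 and Tubb6) and Ttl. All 10 passed the filter on low values, a mean of 1 or more over all libraries, which left 20313 genes to test.

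Per the series' design text, the libraries compare the transcriptomes of hearts with and without METTL3, the enzyme that writes N6-methyladenosine (m6A) onto RNA, in cardiomyocytes. Total RNA from 4 WT and 4 Mettl3 KO hearts was sequenced as stranded 72-base single reads. WT mice were Mettl3lox/lox, with both Mettl3 alleles flanked by loxP sites, and Mettl3 KO mice were Mettl3lox/lox:alphaMHC-MerCreMerpos, which adds a tamoxifen-dependent Cre recombinase driven by the cardiomyocyte promoter alphaMHC. Animals of both genotypes were 10 to 16 weeks old when they were given tamoxifen on 7 days. The study's methods do not state the time from tamoxifen to collection of the hearts. WT hearts carried no Cre, so loss of Mettl3 and presence of MerCreMer cannot be told apart. RNA came from heart tissue, whereas the promoter is active in cardiomyocytes only, so the values also hold RNA of cells in which Mettl3 was not targeted. The labels give 4 samples per genotype with a replicate number each, and p-values measure the spread between these samples.

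Microtubules are hollow polymers of α- and β-tubulin dimers, and mammals draw each subunit from several genes, called isotypes, whose proteins differ mostly in their acidic tails. Most α-tubulins are made with a tyrosine at the very end. The vasohibins VASH1 and VASH2, bound to their partner SVBP, cut this residue off, and TTL puts it back. In cardiomyocytes, detyrosinated microtubules bind to desmin at the sarcomere and resist contraction. The amount of tubulin is also set by the tubulin mRNAs themselves: when free dimers are plentiful, TTC5 reads the first residues of nascent tubulin at the ribosome and the mRNA is degraded through SCAPER and the CCR4-NOT complex.

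The ends of the coding sequences of Tuba4a and Tuba8, the α-tubulin members with the highest values, are shown because TTL acts on the last residue. The last 30 coding bases from the GENCODE M21 transcripts are printed 5′ to 3′, with the last sense codon in capitals and the stop codon after it.
Tuba4a: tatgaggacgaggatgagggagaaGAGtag
Tuba8: gaagaagagaatgagggggaggaaTTTtaa
Tuba4a ended in GAG, a glutamate codon, and Tuba8 in TTT, a phenylalanine codon, so neither encoded the terminal tyrosine.

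The starts of the coding sequences are shown because TTC5 recognises the residues that follow the first methionine. The first 24 coding bases of 4 members are printed with codons 2 to 4 in capitals.
Tuba4a: atgCGCGAGTGCatttcagtccat
Tuba8: atgAGGGAATGCatatcggtccat
Tubb4b: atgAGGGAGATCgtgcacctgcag
Tubb5: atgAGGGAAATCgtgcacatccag
Codons 2 and 3 encoded arginine and glutamate in all 4. Codon 4 was TGC (cysteine) in both α-tubulin members and ATC (isoleucine) in both β-tubulin members.

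Several members share long identical stretches, and reads that matched more than 1 place had been left out by the authors. The share of 72-base windows of each transcript that also occur at another gene was 76.7% for Tuba1b, 57.1% for Tuba1a, 43.9% for Tubb2a, 39.3% for Tubb4b and 32.9% for Tubb2b. It was 0 for Tuba4a, Tuba8, Tubb5, Tubb6 and Ttl. Tuba1a and Tuba1b shared 40.7% and 54.1% of their windows with Tuba1c, Tubb2a and Tubb2b shared 627 windows with each other, and Tubb4b shared 34.8% with the pseudogene Tubb4b-ps1. In the same annotation the model Gm49450 overlaps Tuba1a and Tuba1b on the same strand. Reads that overlap several genes were left out by the authors, but whether their annotation holds this model was not checked. The values of the 5 members with shared windows are therefore uncertain as levels, and Tuba1a and Tuba1b have the highest shares of such windows. On the opposite strand, Stk16 overlaps 47.2% of the Tuba4a windows and Gm15856 13.6% of the Tuba8 windows, and reads were counted by strand.

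**Figure D1:**
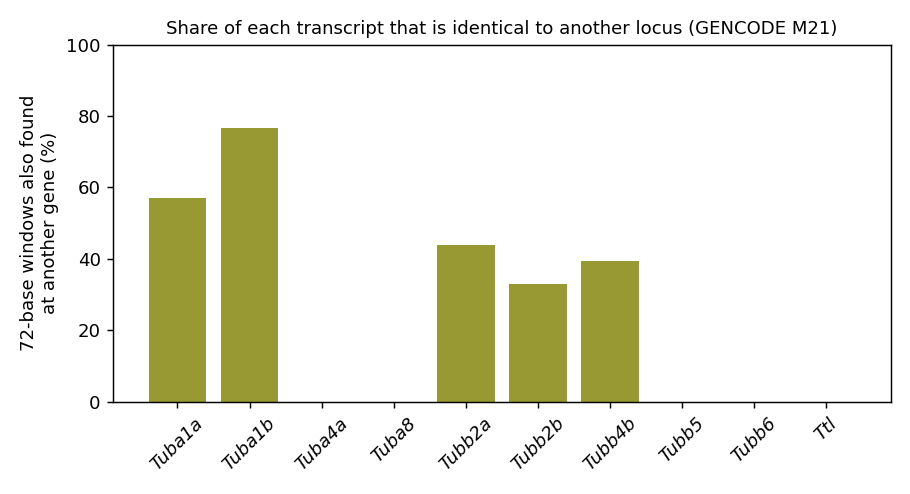
Percent of the 72-base windows of each member's transcript that occur at another gene (vertical axis, %), 1 bar per member. Tuba1b (76.7%) and Tuba1a (57.1%) were the highest, and 5 members had no shared window.

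Libraries were of like depth. Totals of normalized read counts lay between 2839589 and 2881849 in WT and between 2840184 and 2916986 in Mettl3 KO libraries, and the estimated reads behind them between 2731618 and 3061260 and between 2631905 and 3052879. As a check of the labels, Mettl3 was measured at 105, 133, 118 and 107 in WT and at 74, 68, 69 and 78 in Mettl3 KO hearts (116 ± 12.8 and 72.3 ± 4.65, SD, n = 4; log2 fold change -0.67, SE 0.10, limma, adjusted p = 0.000184). Esr1, whose mutated ligand-binding domain is part of MerCreMer, rose from 16.8 ± 2.87 to 769 ± 67.5 (SD, n = 4). Bmp10, an atrial gene, was at 0 in all WT libraries and in Mettl3 KO replicate 1, and at 195, 158 and 358 in Mettl3 KO replicates 2, 3 and 4, so replicate 1 stands apart from its group for this gene. Its summed atrial markers (268) lay within the WT range of 181 to 319, and those of the other Mettl3 KO libraries (741 to 1206) above it. The amount of atrial tissue in each sample was not tested. Over all genes, 1607 of 20313 (7.91%) passed an adjusted p of 0.05 in limma, 958 (4.72%) higher and 649 (3.19%) lower in Mettl3 KO hearts, with a median log2 fold change of -0.01.

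Among the 10 members, Tuba8 alone passed the test, and it was higher in Mettl3 KO hearts. The other 9 did not pass. The share of 1 in 10 is set against 7.91% of all genes, or 10.96% of the 13795 genes with a mean of 10 or more, and is near this background. The members' log2 fold changes were positive in 7 and negative in 3, with a median of 0.09. The WT and Mettl3 KO libraries did not overlap for 3 members, Tuba8, Tubb2a and Tubb4b, all higher in Mettl3 KO. Of all genes, 6.46% were higher and 5.04% lower without overlap. These shares were not computed for genes of like level alone.

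**Figure D2:**
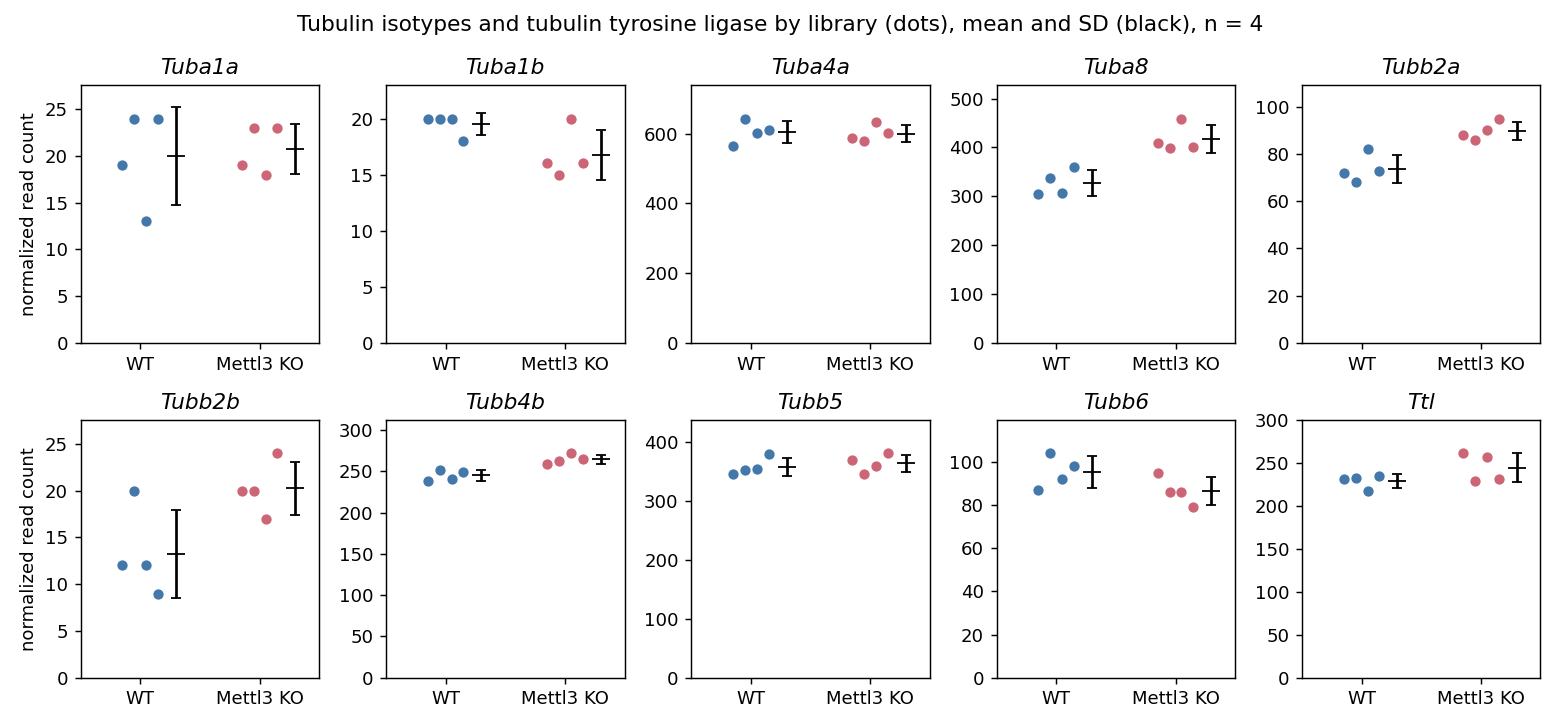
Normalized read count (vertical axis, from 0) of each member in each library (dots), with mean and SD beside them, n = 4 per genotype. For Tuba8 the WT libraries lie between 304 and 359 and the Mettl3 KO libraries between 398 and 459.

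Tuba8 (ENSMUSG00000030137) lies at chr6:121187655-121203813 on the plus strand of mm39 and encodes an α-tubulin known from heart, skeletal muscle and testis. Its normalized read counts were 304, 338, 307 and 359 in WT hearts and 409, 398, 459 and 400 in Mettl3 KO hearts. Every Mettl3 KO library was above every WT library, and Mettl3 KO replicate 3 was the highest. The means were 327 ± 26.3 and 416.5 ± 28.7 (SD, n = 4), a rise of 27.4%. On the log2(value + 1) scale the difference was 0.35 (SE 0.06, 95% confidence interval 0.21 to 0.48, limma, adjusted p = 0.00119). Leaving out each library in turn gave differences of 0.30 to 0.39, all past the threshold. Without Mettl3 KO replicate 1, the library of its group with Bmp10 at 0, the difference was 0.36 (limma, adjusted p = 0.00199).

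In RNA of heart tissue, more cells that express a gene and more RNA per cell cannot be told apart. Markers of other cells moved with genotype beside the rise of Tuba8. Fibroblast markers were higher for 7 of 8 genes, with summed normalized read counts of 3648 to 4172 in WT and 4711 to 5671 in Mettl3 KO hearts. An index of these markers did not overlap between genotypes, from -1.31 to -0.37 in WT and from 0.29 to 1.06 in Mettl3 KO. With this index as a covariate the Tuba8 difference was 0.43 with an SE of 0.18 in place of 0.06, and it no longer passed (limma, adjusted p = 0.593). With an index of atrial markers it was 0.33 (limma, adjusted p = 0.0223). Genotype and fibroblast RNA cannot be told apart in these 8 libraries.

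Tuba4a (ENSMUSG00000026202, chr1:75190872-75196509, minus strand) encodes an α-tubulin abundant in muscle and brain, and it had the highest normalized read count of all members. It was measured at 565, 643, 601 and 609 in WT and at 586, 580, 633 and 601 in Mettl3 KO hearts. The groups overlapped throughout. The difference was -0.01 (SE 0.05, limma, adjusted p = 0.947), with a 95% interval of -0.11 to 0.09. A rise of the size seen for Tuba8 lies outside this interval.

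Tuba1a and Tuba1b were near the low end of the members. Tuba1a (ENSMUSG00000072235, chr15:98847718-98851584, minus strand), the main α-tubulin of neurons, was at 19, 24, 13 and 24 in WT and at 19, 23, 18 and 23 in Mettl3 KO hearts. Tuba1b (ENSMUSG00000023004, chr15:98829306-98832446, minus strand), made in most cells, was at 20, 20, 20 and 18 in WT and at 16, 15, 20 and 16 in Mettl3 KO hearts. The genotypes overlapped for both. Differences were 0.08 (SE 0.23, interval -0.39 to 0.55, limma, adjusted p = 0.905) for Tuba1a and -0.21 (SE 0.21, interval -0.65 to 0.23, limma, adjusted p = 0.645) for Tuba1b. The interval of Tuba1a includes a rise of the size seen for Tuba8, whereas that of Tuba1b ends below it. For both genes reads in the shared stretches had been left out.

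Of the β-tubulin members, none passed the test, and 4 of 5 had a positive difference, with a median of 0.11. The paralogues Tubb2a and Tubb2b lie near each other on chromosome 13 and are best known from the brain. Tubb2a (ENSMUSG00000058672, chr13:34258257-34261990, minus strand) was at 72, 68, 82 and 73 in WT and at 88, 86, 90 and 95 in Mettl3 KO hearts. The groups did not overlap, yet the difference of 0.28 (SE 0.10, interval 0.07 to 0.49) had an unadjusted p of 0.0115 in limma and an adjusted p of 0.0995. Tubb2b (ENSMUSG00000045136, chr13:34310731-34314449, minus strand) was at 12, 20, 12 and 9 in WT and at 20, 20, 17 and 24 in Mettl3 KO hearts. WT replicate 2 reached the Mettl3 KO libraries and the other WT libraries were below them. The difference was 0.62 (SE 0.25, interval 0.10 to 1.14, limma, unadjusted p = 0.0224, adjusted p = 0.151), the largest estimate among the members and the least precise.

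Tubb4b (ENSMUSG00000036752, chr2:25112172-25114714, minus strand), a β-tubulin of many tissues, was at 239, 252, 241 and 249 in WT and at 259, 263, 272 and 265 in Mettl3 KO hearts. The libraries did not overlap and the spread within each genotype was small (245 ± 6.24 and 265 ± 5.44, SD, n = 4). The difference was 0.11 (SE 0.06, interval -0.01 to 0.23, limma, adjusted p = 0.320). Limma draws the spread of each gene towards that of genes of like level, and the gene did not pass.

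Tubb5 (ENSMUSG00000001525, chr17:36144813-36149198, minus strand), the β-tubulin of most dividing and resting cells, was at 345, 351, 354 and 379 in WT and at 369, 345, 358 and 380 in Mettl3 KO hearts. Its groups overlapped, with a difference of 0.02 (SE 0.06, interval -0.09 to 0.14, limma, adjusted p = 0.882). Tubb6 (ENSMUSG00000001473, chr18:67523787-67535819, plus strand), a β-tubulin known to rise in stressed and regenerating striated muscle, was at 87, 104, 92 and 98 in WT and at 95, 86, 86 and 79 in Mettl3 KO hearts. It also overlapped, with a difference of -0.14 (SE 0.10, interval -0.35 to 0.07, limma, adjusted p = 0.498). A rise of Tubb6 above 0.07 on the log2 scale lies outside this interval.

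Ttl (ENSMUSG00000027394, chr2:128907862-128938203, plus strand), the ligase that restores the terminal tyrosine, was at 231, 232, 217 and 235 in WT and at 261, 229, 257 and 231 in Mettl3 KO hearts. Mettl3 KO replicates 1 and 3 were above all WT libraries and replicates 2 and 4 were among them. The means were 229 ± 8.02 and 244.5 ± 16.8 (SD, n = 4), with a difference of 0.09 (SE 0.07, interval -0.05 to 0.23, limma, adjusted p = 0.486). Set against the summed α-tubulin members, the value of Ttl was 23.6 ± 1.25 per 100 in WT and 23.2 ± 1.44 per 100 in Mettl3 KO hearts (SD, n = 4).

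**Figure D3:**
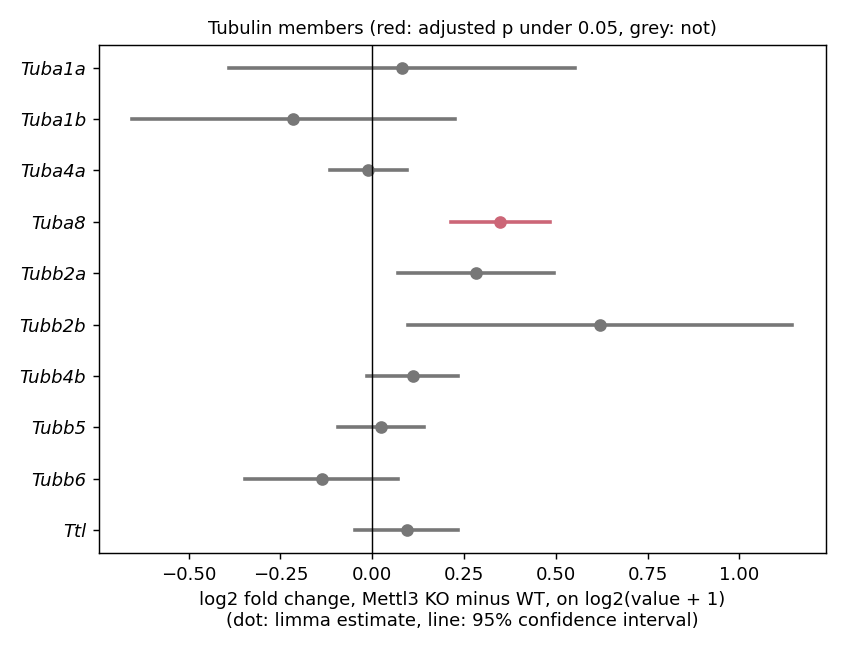
Difference between Mettl3 KO and WT hearts on the log2(value + 1) scale (horizontal axis) for each member, with the limma estimate (dot) and 95% confidence interval (line). The interval of Tuba8 (0.21 to 0.48) is drawn in red as the 1 member with an adjusted p under 0.05, and the grey intervals of Tubb2a and Tubb2b also lie above 0.

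Per kb of exon, the order of the isotypes changed at its top. In WT hearts Tuba4a was first with 163 ± 8.65 normalized read counts per kb and Tuba8 second with 144 ± 11.6 (SD, n = 4), followed by Tubb4b with 117 ± 2.99 and Tubb5 with 107 ± 4.50. Tuba4a was above Tuba8 in all 4 WT libraries, although their ranges overlapped. In Mettl3 KO hearts Tuba8 was first with 184 ± 12.7 and Tuba4a second with 162 ± 6.41, in all 4 libraries and with no overlap. Tubb2a, Tubb6 and Ttl formed a middle tier of 38.5 to 45.8 in WT, within which Tubb2a and Tubb6, and Tubb6 and Ttl, overlapped. Tuba1a, Tuba1b and Tubb2b were lowest, at 11.1, 10.4 and 5.78 in WT.

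This order depends on the length used. When each value is divided by the windows of 1 transcript that occur at no other gene, in place of the exons of all transcripts, Tubb4b ranks first with 265 ± 6.73 per kb in WT and 286 ± 5.87 in Mettl3 KO hearts. On that scale Tuba4a stayed above Tuba8 in both genotypes. Tuba4a lay between 204 and 232 per kb in WT libraries and Tuba8 between 139 and 164, and in Mettl3 KO libraries Tuba4a lay between 209.5 and 228.6 and Tuba8 between 181.6 and 209.4. The exons of all Tuba4a transcripts cover 3701 bases while the transcript used for the windows has 2840, whereas for Tuba8 both lengths are 2263 bases. Tuba1b rose to 50.1 ± 2.57 and Tuba1a to 26.9 ± 7.04 in WT.

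The share of Tuba8 in the summed α-tubulin members was higher in Mettl3 KO than in WT hearts. Of the summed α-tubulin members per kb of exon, Tuba8 made up 43.8% ± 1.35 in WT and 50.2% ± 1.01 in Mettl3 KO hearts (SD, n = 4), and the libraries did not overlap (42.9% to 45.8% and 49.0% to 51.4%). Tuba4a made up 49.6% ± 1.60 and 44.2% ± 0.698. By normalized read count the share of Tuba8 was 33.7% in WT and 39.5% in Mettl3 KO hearts, and per kb of unshared windows 33.5% and 39.8%. On these 2 scales Tuba4a had the largest share in both genotypes. Per kb of exon, Tuba1a and Tuba1b together made up 6.52% ± 0.587 and 5.59% ± 0.355, or 17.3% ± 0.948 and 14.9% ± 0.415 when only unshared stretches count as length. Shares of a sum are tied to each other, since a higher share of 1 isotype lowers the others, and no test was run on them. By normalized read count the α-tubulin members summed to 908, 1025, 941 and 1010 in WT and to 1030, 1016, 1130 and 1040 in Mettl3 KO hearts, a ratio of means of 1.09 with overlapping libraries. Per kb of exon the sums did not overlap, at 308.2 to 347.1 in WT and 353.3 to 394.5 in Mettl3 KO libraries, but per kb of unshared windows they did, at 419.7 to 470.1 and 460.5 to 513.6. The sums include Tuba8, whose mean per kb of exon was 144 in WT and 184 in Mettl3 KO hearts. On that scale the means were 163 and 162 for Tuba4a, 11.1 and 11.5 for Tuba1a, and 10.4 and 8.93 for Tuba1b.

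Per kb of exon the order within the β-tubulin pool was the same in both genotypes, whereas by normalized read count the means of Tubb2a and Tubb6 changed places (73.8 and 95.3 in WT, 89.8 and 86.5 in Mettl3 KO hearts). Per kb of exon, Tubb4b made up 37.2% ± 0.572 of the summed β-tubulin members in WT and 37.7% ± 1.00 in Mettl3 KO hearts, and Tubb5 34.0% ± 0.972 and 32.5% ± 0.748 (SD, n = 4). The larger of these 2 depends on the scale. In WT, Tubb5 made up 45.5% and Tubb4b 31.3% by normalized read count, against 25.0% and 47.7% per kb of unshared windows. Per kb of exon, Tubb2a made up 14.5% ± 1.24 and 16.6% ± 0.444. Tubb6 made up 12.4% ± 0.710 and 10.6% ± 0.872, with libraries at 11.8% to 13.3% and 9.45% to 11.6%. The members summed to normalized read counts of 755, 795, 781 and 808 in WT and to 831, 800, 823 and 843 in Mettl3 KO hearts, a ratio of 1.05, again with overlap. Per kb of exon they did not overlap, at 303.8 to 322.6 in WT and 327.1 to 343.0 in Mettl3 KO libraries, nor did they per kb of unshared windows, at 535.1 to 564.7 and 582.3 to 607.1.

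**Figure D4:**
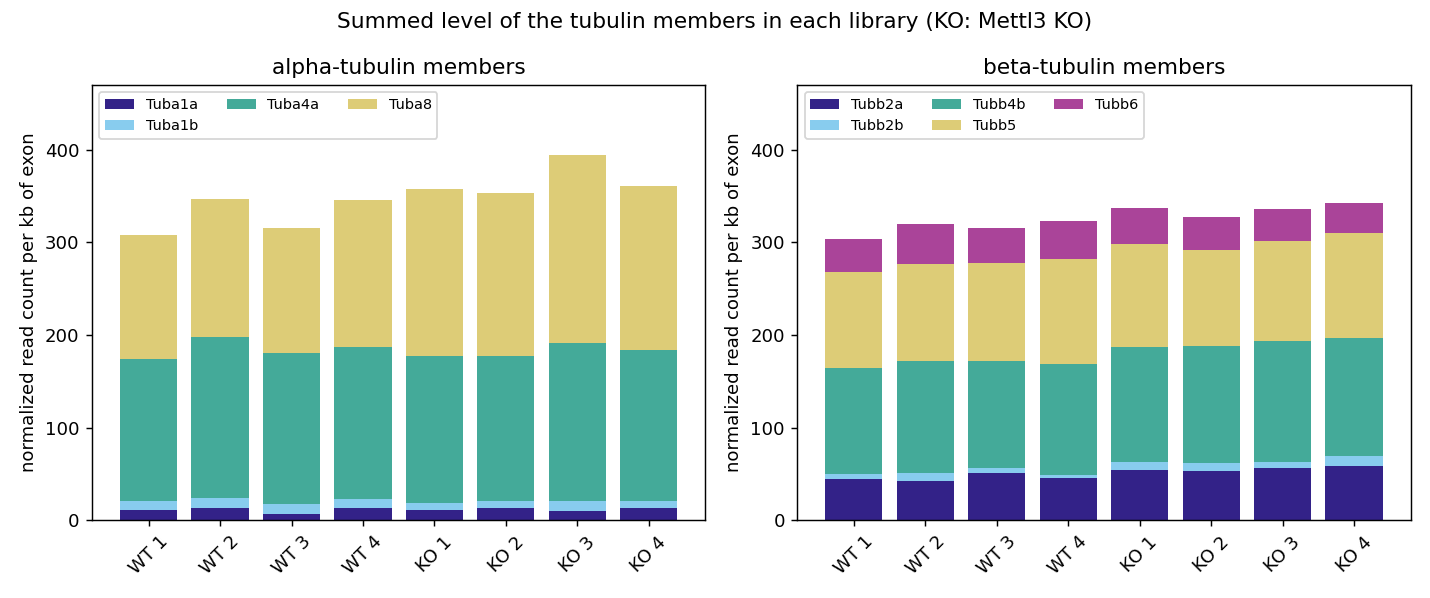
Summed level of the α-tubulin members (left) and β-tubulin members (right) in each library, in normalized read counts per kb of exon (vertical axis, from 0), 1 stacked bar per library. The Tuba8 segment takes 42.9% to 45.8% of the α-tubulin bar in WT and 49.0% to 51.4% in Mettl3 KO libraries.

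Because the study removed an m6A writer, the sense strand of each transcript was searched for GGACT, a common form of the sequence in which METTL3 methylates adenosine. Tuba4a held 7 matches (2.46 per kb), Tubb4b 3 (1.88 per kb), Tubb2a, Tubb2b, Tubb5 and Ttl 2 each, Tuba1a, Tuba8 and Tubb6 1 each, and Tuba1b none. Of 14369 transcripts, 1 per tested protein-coding gene, 92.1% held at least 1 match, with a median of 1.05 per kb. The density of Tuba4a was above that of 94.6% of these transcripts and the density of Tuba8 (0.442 per kb) above that of 14.9%. The single match of Tuba8 lies in the coding sequence, 41 bases before the stop codon, and is printed with its surroundings, the match in capitals.
Tuba8: agaagtggGGACTgattcgtt
A match is a description of the letters and no measurement of methylation, which was not made in these libraries.

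The wider microtubule machinery was read from 12 gene lists. Of 122 tested genes 12 were called (9.84%, beside 7.91% of all genes). Of the called genes 4 were higher and 8 lower, beside 4.72% higher and 3.19% lower of all genes. The median log2 fold change of the tested genes was -0.02. Agtpbp1, Mtus1, Mtus2 and Kif5c stayed past the threshold when any 1 library was left out. The count of called genes was 6 without WT replicate 2 (3 higher and 3 lower) and 7 without WT replicate 4 (4 higher and 3 lower). It was 6 without Mettl3 KO replicate 2 (4 higher and 2 lower) and 13 without Mettl3 KO replicate 1 (7 higher and 6 lower). The excess of lower over higher genes thus depended on single libraries. With the fibroblast index as a covariate the count was 0. With the atrial index as a covariate 5 of the 12 genes no longer passed in limma, namely Cnot1 (adjusted p = 0.0592), Spast (adjusted p = 0.109), Ttll5 (adjusted p = 0.114), Dctn1 (adjusted p = 0.120) and Mapt (adjusted p = 0.263). Cnot1 (limma, adjusted p = 0.0519) and Spast (limma, adjusted p = 0.0591) also failed to pass once replicate number entered as a block.

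None of the 3 tested detyrosination genes, the vasohibins and their partner, was called. Beside the 7.91% called of all genes, a list of 3 is too short to set apart. The detyrosinase Matcap1 was not analysed here. Svbp, the partner of the vasohibins, was at 9, 9, 10 and 8 in WT and at 14, 24, 14 and 17 in Mettl3 KO hearts. These groups did not overlap, but the difference of 0.84 (SE 0.26, limma, adjusted p = 0.0518) narrowly missed the threshold. Vash1, the main vasohibin measured, had a difference of -0.22 (SE 0.10, limma, adjusted p = 0.220) and Vash2 was at 5 or below in every library. None of the 3 tested acetylation genes was called either, again beside 7.91% of all genes. Atat1, which acetylates α-tubulin, was at 0.29 (limma, adjusted p = 0.324) and the deacetylases Hdac6 and Sirt2 at 0.04 and -0.10.

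Among 13 tested genes of glutamylation and glycylation, the addition of side chains to the tubulin tails, 3 fell and 0 rose, beside 3.19% lower and 4.72% higher of all genes, and the median of the list was 0.01. Agtpbp1, which trims glutamate chains and also the exposed end of detyrosinated α-tubulin, was at 915, 864, 1037 and 986 in WT and at 594, 644, 679 and 659 in Mettl3 KO hearts. All Mettl3 KO libraries were far below all WT libraries, and on the log2 scale the value fell by 0.56 (SE 0.06, limma, adjusted p = 9.00e-07). Ttll1, a polyglutamylase, fell by 0.31 (SE 0.08, limma, adjusted p = 0.0190) and Ttll5, a glutamylase, by 0.24 (SE 0.07, limma, adjusted p = 0.0367). Ttll1 missed the threshold without WT replicate 2 or 3 or Mettl3 KO replicate 2 or 3, with adjusted p up to 0.0765, and Ttll5 without WT replicate 1, 2 or 4 or Mettl3 KO replicate 2 or 3, with adjusted p up to 0.138.

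Of the 21 tested folding genes, Tbcc, a cofactor that releases the finished α/β dimer, was the 1 called, beside 7.91% of all genes. It was at 25, 39, 39 and 36 in WT and at 58, 56, 50 and 49 in Mettl3 KO hearts, a rise of 0.62 (SE 0.16, limma, adjusted p = 0.0163), which missed the threshold without WT replicate 1 or Mettl3 KO replicate 2 (adjusted p up to 0.0652). In the 4 autoregulation genes, Cnot1, the scaffold of CCR4-NOT, fell by 0.15 (SE 0.04, limma, adjusted p = 0.0246), from 1086 ± 34.2 to 979 ± 22.8 (SD, n = 4). It missed the threshold without WT replicate 1 or 4 or Mettl3 KO replicate 2 or 4, with adjusted p up to 0.0814. Ttc5 itself had a difference of -0.02 (SE 0.10, limma, adjusted p = 0.937).

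Of 15 tested structural microtubule-associated proteins, 2 were called higher and 2 lower, beside 4.72% and 3.19% of all genes, with a list median of 0.10. Mtus1, a microtubule-binding protein, was at 1205, 1155, 1206 and 1189 in WT and at 1509, 1416, 1464 and 1364 in Mettl3 KO hearts, a rise of 0.27 (SE 0.04, limma, adjusted p = 0.000101). Its paralogue Mtus2 was at 784, 724, 830 and 776 in WT and at 662, 638, 678 and 640 in Mettl3 KO hearts, and it fell by 0.25 (SE 0.05, limma, adjusted p = 0.00175). These paralogues thus moved in opposite directions, each without overlap. Map4, the main structural microtubule-associated protein of heart, rose by 0.15 (SE 0.04, limma, adjusted p = 0.0128), and the tau gene Mapt fell by 0.24 (SE 0.06, limma, adjusted p = 0.0162). Map4 missed the threshold without WT replicate 2 or Mettl3 KO replicate 3 (adjusted p up to 0.0700) and Mapt without WT replicate 2 or 4 or Mettl3 KO replicate 2 or 4 (adjusted p up to 0.0845).

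Among 15 tested motor genes, Kif5c, a kinesin heavy chain best known from neurons, was at 15, 13, 14 and 12 in WT and at 42, 31, 28 and 31 in Mettl3 KO hearts. The lowest Mettl3 KO library was well above the highest WT library, and the rise was 1.22 (SE 0.20, limma, adjusted p = 0.000470). Markers of Schwann cells and neurons summed to 79 to 104 in WT and 83 to 128 in Mettl3 KO hearts, with 1 of 8 called, and their part in the Kif5c result was not tested. Dctn1, a dynactin subunit that serves dynein, fell by 0.17 (SE 0.05, limma, adjusted p = 0.0338). Spast, which severs microtubules, was the 1 called gene of 12 in its list (7.91% of all genes were called) and fell by 0.21 (SE 0.06, limma, adjusted p = 0.0382). Dctn1 missed the threshold without WT replicate 2, 3 or 4 or Mettl3 KO replicate 1, 2 or 4 (adjusted p up to 0.103), and Spast whenever a library other than WT replicate 3 was left out (adjusted p up to 0.111).

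No gene was called among 8 other tubulins, 9 plus-end proteins, 14 nucleation and minus-end proteins or 5 links to sarcomere and membranes, beside 7.91% of all genes. In the last list Ckap4, which ties microtubules to the endoplasmic reticulum, and the spectraplakin Dst did not overlap between genotypes but missed the threshold (0.25 and 0.10, limma, adjusted p = 0.0518 and 0.0570). Desmin (Des) had a difference of 0.02 (SE 0.05, limma, adjusted p = 0.911). Tuba1c, which shares most with Tuba1a and Tuba1b, was at 15.3 ± 6.65 in WT and 16.8 ± 4.35 in Mettl3 KO hearts (SD, n = 4).

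**Figure D5:**
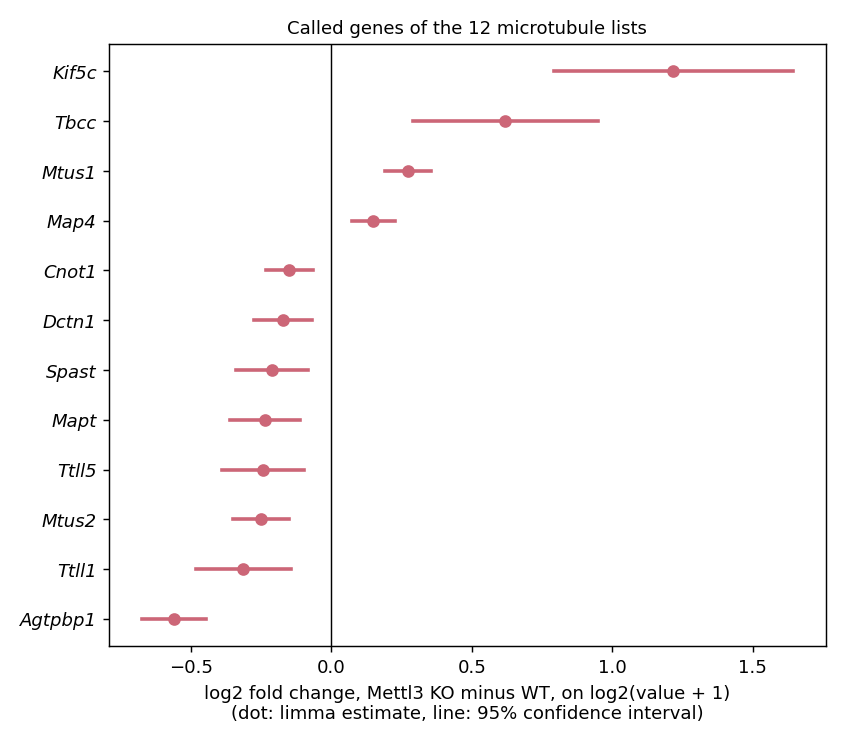
Difference between Mettl3 KO and WT hearts on the log2(value + 1) scale (horizontal axis) for the 12 called genes of the 12 microtubule lists, with the limma estimate (dot) and 95% confidence interval (line). Kif5c (1.22) is the highest and Agtpbp1 (-0.56) the lowest, and 8 of the 12 lie below 0.

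Marker lists describe which cells contributed RNA, and their counts of called genes stand beside 4.72% higher and 3.19% lower of all genes. Ventricular cardiomyocyte markers summed to 22651 to 23953 in WT and 21115 to 23784 in Mettl3 KO hearts. Ryr2 was the 1 called of 8 and was lower (-0.23, SE 0.03, limma, adjusted p = 0.000137). It has the highest values of this list, with means of 9885 in WT and 8432 in Mettl3 KO hearts, and weighs most in the sums. The other ventricular markers had small positive differences that did not pass, and the list median was 0.05. Fibroblast Col3a1, a fibrillar collagen, rose by 0.43 (SE 0.06, limma, adjusted p = 0.000123), whereas 3 of 8 endothelial markers fell and 1 rose (4825 to 4975 and 4407 to 4786), with Kdr at -0.26 (SE 0.04, limma, adjusted p = 0.000667). Of the dividing cell markers 2 of 8 fell, with summed values of 743 to 1200 in WT and 528 to 717 in Mettl3 KO hearts and Cenpf at -0.73 (SE 0.08, limma, adjusted p = 4.98e-06). Atrial markers were higher for 4 of 7 (181 to 319 and 268 to 1206) and mesothelial markers for 2 of 6 (75 to 120 and 100 to 161). Macrophage (1124 to 1332 and 1156 to 1388), lymphocyte (266 to 309 and 270 to 318), smooth muscle and pericyte (2617 to 2836 and 2525 to 2780) and adipocyte markers (3 to 8 and 5 to 16) had no called gene. With the fibroblast index as a covariate 0 members passed the test, and with the atrial index Tuba8 alone passed.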

How the data were processed

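RNA was taken from hearts of 4 WT and 4 Mettl3 KO mice. Per the study's methods and processing notes, the authors trimmed reads (Trimmomatic 0.39), aligned them to mm39 (STAR 2.7.11a), removed duplicates (Picard 3.1.1) and multi-mapping reads, counted exons by strand without reads overlapping several genes (featureCounts 2.0.4), and normalized with DESeq2 1.36.0. The deposited values are a score: normalized read counts rounded to whole numbers, not raw counts, so the count model foreseen for raw counts was not used.

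Genes with a mean of 1 or more were kept. Genotype was the only term of the model, which limma 3.58.1 (R 4.3.3) fitted to log2(value + 1) allowing the variance to follow the mean. Tests were two-sided and adjusted by Benjamini-Hochberg over 20313 genes, and 2732 genes were left out. This scale understates the change of low genes. Library factors (0.927 to 1.11) estimated from gaps in low values gave the reads per library. Intervals are at the 95% level.

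The members and lists were chosen with earlier results of these data known. Named were all members, Mettl3, up to 4 called genes per microtubule list with the largest change and no overlap, and the most abundant gene of marker lists. Esr1, Bmp10, Svbp, Vash1, Vash2, Atat1, Hdac6, Sirt2, Ttc5, Ckap4, Dst, Des and Tuba1c were added after their values were seen, and 1 atrial gene and some coding ends are not reported here. Microtubule lists held 137 symbols, 124 in the table. Lengths and sequences came from GENCODE M21 transcripts of an earlier build, matched for all 10 members, and none of its coordinates was used. Windows were compared as exact matches. Alternatives were other pseudocounts, filters, scalings and models, the replicate number as a block, marker indices as covariates and each library left out.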

Additional observations from a re-analysis of the deposited data

Results flagged for a closer look

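Tuba1b in WT hearts was at 18 in replicate 4 and at 20 in each of the other 3 libraries, so the gap of this library to its nearest neighbour took up the whole range of the group (Dixon's ratio 1, above its 95% critical value). The gap is 2 normalized read counts. Over 26 groups of 4 examined in this way chance gives about 1.3 such values.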

How the results depend on the processing

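Tuba8 was higher in Mettl3 KO hearts in all 20 alternatives and passed the threshold in 19, with differences of 0.30 to 0.43 on the log2 scale. With the fibroblast index as a covariate 0 members, 0 genes of the microtubule lists and 16 of all genes passed (Tuba8 at 0.43, adjusted p = 0.593), and this index does not overlap between genotypes, which leaves little of the genotype difference to estimate. With the atrial index 1025 of all genes passed. Leaving out each library in turn gave 1 member each time, 6 to 13 genes of the microtubule lists and 1005 to 1593 of all genes, lowest without Mettl3 KO replicate 3. The other 9 members passed in none of the 20 alternatives, and their lowest adjusted p was 0.0650 (Tubb2b, without WT replicate 2). The direction of Tuba1a, Tuba4a, Tubb5, Tubb6 and Ttl turned in 1 to 4 alternatives, none of them past the threshold. Same-numbered samples showed little shared deviation, with correlations of 0.05, 0.04, -0.04 and 0.09 over 12027 genes. The labels do not say whether samples were paired. With the replicate number as a block 1346 of all genes and 10 of the microtubule lists passed (Cnot1 and Spast did not), and Tuba8 kept its call (adjusted p = 0.00781). Tuba1a, Tuba1b and Tubb2b, the members with the lowest values, have the widest intervals.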
